A study of Mus musculus with 24 samples.

Results

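The tissue inhibitors of metalloproteinases (Timps) and the matrix metalloproteinases were followed in the hippocampus of male Swiss-Webster mice, an outbred stock, through the resting period after a night of exposure to corticosterone. All microarray probes that are no control spots and whose transcript identifier belongs to *Timp1*, *Timp2*, *Timp3*, *Timp4*, *Mmp2*, *Mmp9*, *Mmp14*, *Mmp15*, *Mmp16* or *Mmp17* were taken. These are 16 of 56605 unique probes, and they detect 10 of 23787 named genes: 7 probes for the 4 Timp genes and 9 probes for the 6 metalloproteinase genes. Each gene had at least 1 probe.

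The 48 mice were 12 weeks old and fell into 6 groups of 8. Corticosterone-treated mice drank water with corticosterone at 100 µg/ml and 0.45% hydroxypropyl-β-cyclodextrin, and control mice drank water with the same 0.45% of cyclodextrin, a carrier for the steroid, and no hormone. The bottles were given for a dark phase of 12 h, when mice are active, and tissue was taken during the first, the fifth or ninth hour of the following light phase. Each of the 24 dual-color Agilent arrays, printed on 3 slides, compared 1 control mouse, labeled with Cy3, with 1 corticosterone-treated mouse, labeled with Cy5. No array had the dyes the other way round. A fixed dye bias of a probe therefore enters the comparison of treatments at each time point and cancels in the change of that effect between time points. Whole hippocampus was used, so fewer cells of a type and less RNA per cell cannot be told apart.

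All 6 markers of hippocampal neurons were well above background in 48 of 48 channels. Of the spots of an array, 60.8% to 67.2% were well above background for Cy3 and 64.0% to 73.5% for Cy5, and none was saturated. The number of arrays limits the precision. Values are normalized intensities without offset and fold changes from the same data, with corticosterone-treated over control mice as the direction and the standard error (SE) of the fit. An adjusted *p* (limma's separate channel test, Benjamini-Hochberg over all 56605 probes) under 0.05 counts as a significant difference. The array of the fifth hour with replicate number 7 stood apart: the SD of its log2 spot brightness about the mean of all arrays was 0.448, against 0.134 to 0.227 on the others, in both channels together, while the SD of its log2 ratios was 0.289, against 0.220 to 0.361. Where leaving it out changed a call, this is given beside the result.

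Matrix metalloproteinases are zinc enzymes that cut proteins of the extracellular matrix and of the cell surface, and Timps bind to their active site and block it. *Mmp2* and *Mmp9* encode the secreted gelatinases, *Mmp14*, *Mmp15* and *Mmp16* membrane-spanning enzymes, and *Mmp17* an enzyme held to the membrane by a lipid anchor. In the brain this system acts on the matrix around synapses and on the basement membrane of vessels, and *Timp4* is known for expression in the brain and heart. A peculiarity of the family is its position. By the RefSeq annotation, *Timp1* lies within *Syn1*, *Timp4* within *Syn2* and *Timp3* within *Syn3*, the genes of the synapsins, which coat synaptic vesicles. *Timp1* and *Timp4* are transcribed from the strand opposite to their host, and the strand of *Syn3* relative to *Timp3* was not determined here.

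Promoters are shown for *Timp4*, *Timp3* and *Mmp15*, the genes whose brightest probe differed significantly between treatments. Each line gives the 250 bases before the start of transcription, 5′ to 3′, from RefSeq (GRCm38.p6): *Timp4* at chr6:115252206-115252455 on the minus strand, *Timp3* at chr10:86300162-86300411 and *Mmp15* at chr8:95352046-95352295 on the plus strand. Capitals mark the matches to any of the motifs searched on both strands.
Timp4: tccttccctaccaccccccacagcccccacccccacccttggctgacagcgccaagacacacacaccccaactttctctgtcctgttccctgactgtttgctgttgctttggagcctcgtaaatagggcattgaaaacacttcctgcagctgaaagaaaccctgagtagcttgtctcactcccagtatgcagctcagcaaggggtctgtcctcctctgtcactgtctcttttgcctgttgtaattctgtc
Timp3: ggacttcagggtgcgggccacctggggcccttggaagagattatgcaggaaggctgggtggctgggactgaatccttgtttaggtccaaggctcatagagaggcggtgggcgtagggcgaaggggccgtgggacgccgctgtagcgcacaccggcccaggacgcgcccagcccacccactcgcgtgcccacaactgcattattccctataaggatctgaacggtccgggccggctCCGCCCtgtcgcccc
Mmp15: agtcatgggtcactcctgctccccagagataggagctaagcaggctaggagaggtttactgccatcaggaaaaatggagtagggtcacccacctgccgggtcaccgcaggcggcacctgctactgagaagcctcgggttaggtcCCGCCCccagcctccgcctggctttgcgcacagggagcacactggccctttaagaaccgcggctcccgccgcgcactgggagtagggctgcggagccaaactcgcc
The searched motifs were the palindromic glucocorticoid response element (AGAACA, any 3 bases, TGTTCT), its arm AGAACA alone (which lies within the former), the AP-1 site TGANTCA, the GC box GGGCGG, the CCAAT box CCAAT and the TATA box TATAAA. Among 32851 promoters cut to the same length, they were found in 0.00913%, 16.1%, 6.75%, 32.7%, 33.8% and 12.4%, in this order. The only capitals are those of the GC box, with 1 match in *Timp3*, 15 bases before the start, and 1 in *Mmp15*, 106 bases before it, and none of these letters was found in the window of *Timp4*. Of the members, 6 had a promoter entry (*Timp1*, *Timp2* and *Mmp14* are the others). None of the 6 held AGAACA, and 5 of the 6 held the GC box.

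*Timp4* was higher in corticosterone-treated mice at all 3 time points, by 90.0%, 88.6% and 71.2% at its brighter probe. During the first hour, this probe (A_55_P2908603) ranged from 1785 to 2177 (median 1942) in control mice and from 3256 to 4287 (median 3698) in corticosterone-treated mice. During the fifth hour, the range was 1726 to 2121 (median 1940) in control mice and 3022 to 4690 (median 3524) in treated mice. During the ninth hour, it was 1633 to 1755 (median 1704) against 2580 to 3230 (median 2930). At each time point, every treated mouse lay above every control mouse, and the treated mouse was the brighter one on 8 of 8 arrays. The share of all probes whose groups do not overlap is not given, here or for the separations described below.

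The log2 fold change of this *Timp4* probe was 0.93 (adjusted *p* = 3.7e-19, SE 0.0533) during the first hour. It was 0.92 (adjusted *p* = 1.2e-18) during the fifth and 0.78 (adjusted *p* = 1.1e-15) during the ninth hour. The dimmer probe A_51_P355427 gave 0.87, 0.93 and 0.78 (adjusted *p* = 4.1e-15, 4.6e-16 and 6.9e-13, SE 0.0631), again without overlap of the groups at any time point. Within the slides, the mean log2 ratio lay between 0.74 and 1.04 at the brighter and between 0.70 and 1.07 at the dimmer probe, so the direction was the same on each slide at each time point.

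The change of the *Timp4* effect at the ninth relative to the first hour was -0.15 (adjusted *p* = 0.63, SE 0.0753) at the brighter and -0.09 (adjusted *p* = 0.96, SE 0.0892) at the dimmer probe. Within treated mice, the brighter probe was lower during the ninth than during the first hour (log2 fold change -0.34, adjusted *p* = 0.00011, SE 0.0621) and than during the fifth hour (-0.33, adjusted *p* = 0.0013). The dimmer probe gave -0.25 and -0.29 (adjusted *p* = 0.030 and 0.027, SE 0.0736). In control mice, the brighter probe had a log2 fold change of -0.19 (SE 0.0621) for the ninth against the first hour, with an adjusted *p* of 0.15. The median intensity of *Timp4* was thus lowest during the ninth hour in both treatments, and the comparison over time passed the threshold in treated mice. Against the fifth hour, the decrease of the brighter probe missed the threshold without slide 1 (-0.24, adjusted *p* = 0.39), on which 4 of the 8 ninth-hour arrays lay, and without slide 3 (-0.32, adjusted *p* = 0.069). The dimmer probe missed it in both comparisons without slide 1 (-0.24 and -0.21, adjusted *p* = 0.34 and 0.79) or slide 3 (-0.31 and -0.24, adjusted *p* = 0.065 and 0.35), and against the first hour also without slide 2 (-0.19, adjusted *p* = 0.15). With all arrays kept, both of its calls were lost with an offset of 0 (adjusted *p* = 0.051 and 0.058) and with processed signals (adjusted *p* = 0.097 and 0.051). They were also lost when 1 of 8 arrays was left out in the comparison with the first hour (replicate numbers 1, 3, 4 and 7 of the first and 1, 4, 6 and 7 of the ninth hour; adjusted *p* up to 0.10) and when 1 of 5 was left out in that with the fifth (fifth-hour numbers 1 and 6, ninth-hour numbers 1, 4 and 7; up to 0.093).

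**Figure D1:**
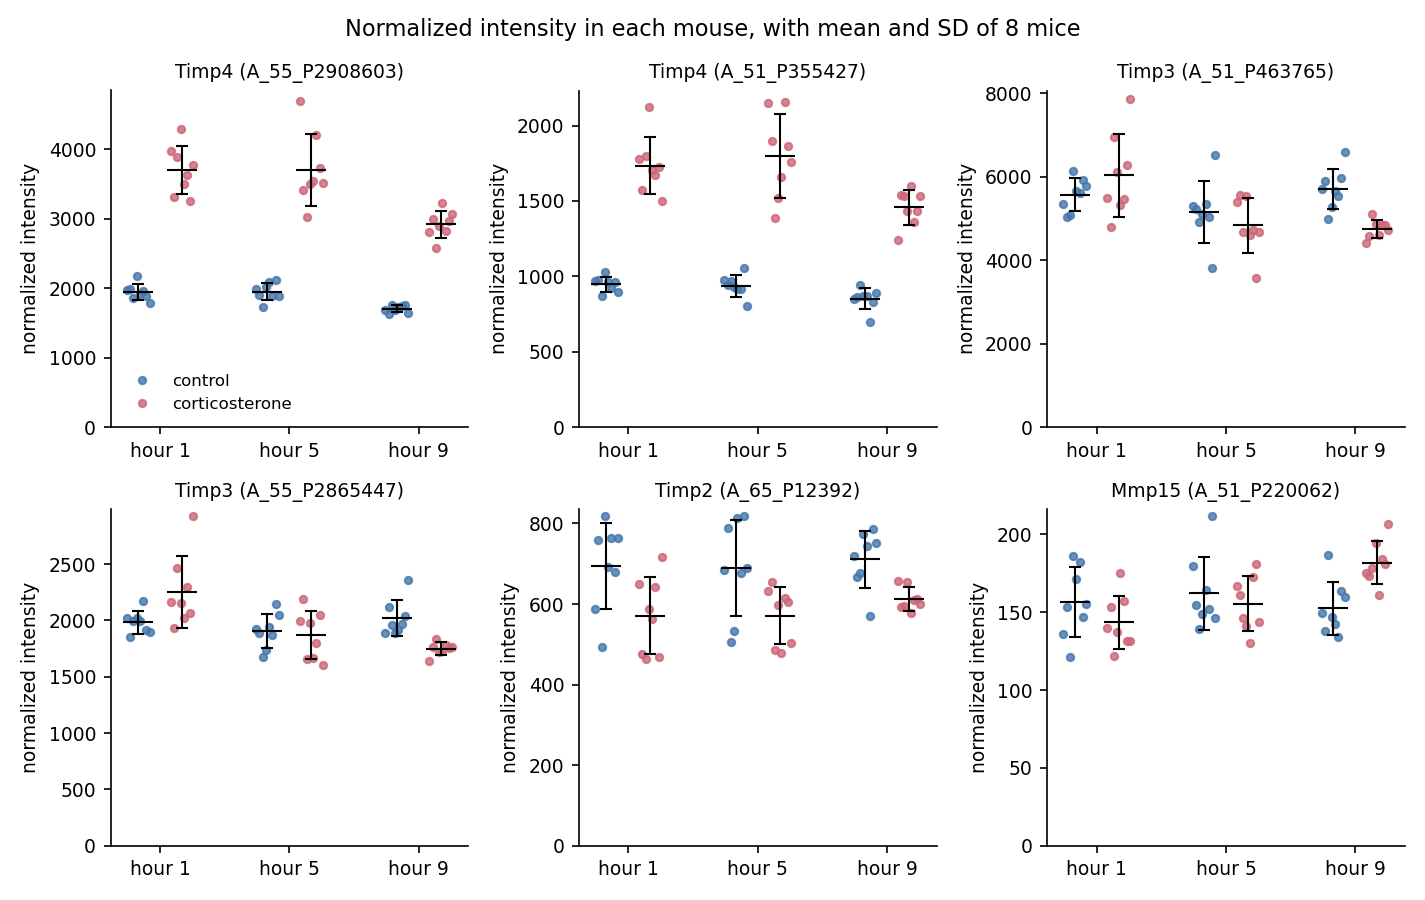
Normalized intensity (vertical axes, from 0) of 6 probes in each mouse at the 3 time points of the light phase; points are single mice, blue for control and red for corticosterone, and black lines with bars are the mean and SD of 8 mice. The groups are apart at all time points for both *Timp4* probes and overlap elsewhere, except for the *Timp3* probe A_55_P2865447 during the ninth hour, where the treated mice lie at 1642 to 1839 and the control mice at 1887 to 2361. The share of all probes with groups apart is not given.

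*Timp4* in the brain is known from astrocytes, among other cells. Of the 5 astrocyte markers, 1 was higher and 1 lower during the first hour, and 1 was higher and 2 lower during the fifth as well as the ninth hour. Among the brightest probes of all 23787 named genes, 10.3% were higher and 10.4% lower during the first hour. These shares were 9.9% and 10.9% during the fifth, and 8.37% and 7.21% during the ninth hour. With so few markers, their counts were not tested against these shares. *Aldh1l1*, a folate enzyme, was higher (log2 fold change 0.57, 0.51 and 0.41, adjusted *p* = 9.2e-14, 5.4e-12 and 4.2e-09), while *Aqp4*, the water channel of astrocyte endfeet, was lower (log2 fold change -0.76, -0.86 and -0.71, adjusted *p* = 1.2e-08, 8.4e-10 and 2.0e-07). The gap junction gene *Gja1* was lower during the fifth and the ninth hour (log2 fold change -0.19 and -0.25, adjusted *p* = 0.015 and 0.0016). The summed intensity of the 5 markers ranged from 22210 to 25510 in control and from 25520 to 27340 in treated mice during the first hour, from 23020 to 29320 and from 23430 to 29170 during the fifth, and from 21930 to 25780 and from 23000 to 26930 during the ninth hour. This sum is mostly that of *Slc1a3* and *Aldh1l1* (mean intensity 11440 and 6008), so that it largely restates these probes while *Aqp4* (1743) went the other way. All 5 markers were well above background in 48 channels; their part in the *Timp4* result was not tested.

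*Timp3*, which encodes the inhibitor that binds to the matrix itself, was higher in treated mice during the first hour at its dimmer probe and lower during the ninth hour at both probes. Its brighter probe A_51_P463765 ranged from 5034 to 6135 (median 5637) in control and from 4801 to 7857 (median 5804) in treated mice during the first hour. During the fifth hour, it ranged from 3810 to 6525 (median 5169) and from 3576 to 5564 (median 4700), and during the ninth hour from 5002 to 6589 (median 5690) and from 4424 to 5104 (median 4796). During the ninth hour, 7 of 8 treated mice lay below all control mice. Its log2 fold changes were 0.10, -0.09 and -0.26 (adjusted *p* = 0.32, 0.39 and 0.0078, SE 0.0722), so that this probe was significantly lower during the ninth hour alone. The first-hour value was 0.05 without replicate number 3 or 8 (adjusted *p* = 0.68 and 0.65).

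The dimmer *Timp3* probe A_55_P2865447 ranged from 1849 to 2175 (median 1994) in control and from 1929 to 2924 (median 2158) in treated mice during the first hour. During the fifth hour, the ranges were 1677 to 2149 (median 1906) and 1607 to 2195 (median 1890). During the ninth hour, all 8 treated mice (1642 to 1839, median 1758) lay below all control mice (1887 to 2361, median 1966). The log2 fold change of this probe was 0.17 (adjusted *p* = 0.022, SE 0.0579) during the first, -0.03 (adjusted *p* = 0.74) during the fifth and -0.20 (adjusted *p* = 0.0090) during the ninth hour. The treated mouse was the brighter one on 8 of 8 arrays of the first hour and on 0 of 8 arrays of the ninth hour. The size of the first-hour value rests to a large part on replicate number 8, whose log2 ratio was 0.62, against 0.02 to 0.31 on the other 7 arrays: without that array the log2 fold change was 0.11 (adjusted *p* = 0.13), and the call was also lost without replicate number 3 (0.15, adjusted *p* = 0.068).

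The change of effect at the ninth relative to the first hour, in which a constant dye difference cancels, was -0.38 (adjusted *p* = 0.0037, SE 0.0819) at the dimmer and -0.36 (adjusted *p* = 0.061, SE 0.102) at the brighter *Timp3* probe, so that 1 of the 2 passed the threshold. The brighter probe passed it under 5 other settings: with the scanner software's processed signals (adjusted *p* = 0.0098), with probes of an intensity of 50 or more (0.020) or well above background in at least 8 channels (0.029), with the log2 ratios of the authors' table (0.044) and without the array that stood apart (0.021). It also passed without any 1 of 4 other arrays (adjusted *p* from 0.035). Under the other settings with all arrays or without a slide, its adjusted *p* was 0.051 to 0.52. Within treated mice, *Timp3* was lower during the ninth than during the first hour at both probes, with a log2 fold change of -0.33 at the brighter (adjusted *p* = 0.0091, SE 0.0842) and of -0.35 at the dimmer (adjusted *p* = 0.00021, SE 0.0675). The dimmer probe was also lower in treated mice of the fifth hour than in those of the first (log2 fold change -0.27, adjusted *p* = 0.035). No comparison of control mice between time points was significant for *Timp3*.

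At the dimmer *Timp3* probe, the mean log2 ratio during the first hour was 0.08, 0.14 and 0.27 on slides 1, 2 and 3, and during the ninth hour -0.17, -0.15 and -0.32. The direction was thus the same on each slide, with the widest swing on slide 3, which holds the treated mouse at 2924. Several calls were lost under other settings while the direction stayed. The first-hour call of the dimmer probe was lost in a fit of that hour alone (0.17, adjusted *p* = 0.055). Its difference was 0.19 without slide 2 (adjusted *p* = 0.10) and 0.12 without slide 3 (adjusted *p* = 0.21), and the ninth-hour difference -0.23 without slide 1 (adjusted *p* = 0.11). The ninth-hour difference of the brighter probe was -0.31 without slide 1 (adjusted *p* = 0.072) and -0.26 without slide 2 (adjusted *p* = 0.060), no smaller than with all slides. The change of effect at the dimmer probe was -0.44, -0.42 and -0.28 without slides 1, 2 and 3 (adjusted *p* = 0.081, 0.053 and 0.17). In treated mice, the decrease of the brighter probe to the ninth hour was -0.40, -0.31 and -0.26 without these slides (adjusted *p* = 0.063, 0.16 and 0.053), and that of the dimmer probe to the fifth hour -0.23 without slide 2 and -0.18 without slide 3 (adjusted *p* = 0.38 and 0.59). The latter was also lost with an offset of 0 (adjusted *p* = 0.066) and without any 1 of 7 arrays (replicate numbers 3, 6 and 8 of the first and 3, 5, 6 and 8 of the fifth hour), with values of -0.26 to -0.21 (adjusted *p* up to 0.11). At the brighter probe, the decrease to the fifth hour (-0.31, adjusted *p* = 0.056) passed with processed signals (0.033) and without slide 1 (0.031), and stood at the threshold with probes of an intensity of 50 or more; it also passed without any 1 of 5 arrays (adjusted *p* from 0.022).

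*Timp2* had a bright probe without a significant difference and a dimmer probe that was lower in treated mice. The dimmer probe was still well above background in 48 of 48 channels, with a mean intensity of 641.6. *Timp2* encodes the inhibitor that also takes part in the activation of the Mmp2 proenzyme by Mmp14. The bright probe A_52_P540219 had intensities of 29520 to 58240 over the first-hour groups, with log2 fold changes of -0.05, 0.01 and 0.02 (adjusted *p* = 0.78, 0.95 and 0.94, SE 0.101). The dimmer probe A_65_P12392 ranged from 492.4 to 817.7 (median 725.4) in control and from 462.3 to 717.9 (median 574.4) in treated mice during the first hour. The ranges were 506.2 to 818.1 (median 687.6) and 477.3 to 654.4 (median 601.3) during the fifth hour, and 569.5 to 786.4 (median 731.7) and 576.5 to 658.0 (median 605.2) during the ninth hour. The treated mouse was the dimmer one on 7 of 8 arrays at each time point, with overlapping groups.

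The dimmer *Timp2* probe had a log2 fold change of -0.28 (adjusted *p* = 0.013, SE 0.0870) during the first, -0.26 (adjusted *p* = 0.023) during the fifth and -0.21 (adjusted *p* = 0.079) during the ninth hour. The probes of this gene therefore disagree in size, although their log2 ratios went together over the 24 arrays (Pearson's r 0.852, a description). Both calls were lost without slide 1, with values of -0.29 and -0.28 (adjusted *p* = 0.061 and 0.072), and without slide 3, with -0.28 and -0.21 (adjusted *p* = 0.12 and 0.29). The call of the fifth hour was also lost in a fit of that hour alone (-0.26, adjusted *p* = 0.060) and without the array that stood apart (log2 fold change -0.23, adjusted *p* = 0.074). The ninth-hour value, in turn, passed in a fit of that hour alone (adjusted *p* = 0.0078) and without slide 2 (-0.24, adjusted *p* = 0.049) or the array with replicate number 6 (-0.25, adjusted *p* = 0.048). The first-hour call was also lost without replicate number 2 (-0.23, adjusted *p* = 0.071) or 7 (-0.25, adjusted *p* = 0.054), and that of the fifth hour without number 5 (-0.19, adjusted *p* = 0.14) or 8 (-0.23, adjusted *p* = 0.076).

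*Timp1*, the inhibitor best known for its induction in injured and inflamed tissue, showed no significant difference. Its probe A_52_P87713 ranged from 160.8 to 204.7 in control and from 158.2 to 210.8 in treated mice during the first hour, from 144.8 to 195.8 and from 152.4 to 226.8 during the fifth, and from 153.4 to 194.9 and from 139.7 to 171.7 during the ninth hour. The log2 fold changes were -0.02, 0.16 and -0.16 (adjusted *p* = 0.84, 0.087 and 0.085, SE 0.0658). The last 2 of these values lay close to the threshold on opposite sides of 0, and their difference had an adjusted *p* of 0.29. The value of the fifth hour passed with Aquantile normalization (adjusted *p* = 0.029) and without replicate number 2 (0.041) or 4 (0.048), and that of the ninth in a fit of that hour alone (0.023). The fifth-hour value leans on replicate number 5, whose log2 ratio was 0.64, and was 0.09 without it (adjusted *p* = 0.39).

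Among the metalloproteinases, *Mmp15* was higher in treated mice during the ninth hour. Its probe A_51_P220062 ranged from 121.4 to 185.9 (median 154.2) in control and from 122.1 to 174.9 (median 138.8) in treated mice during the first hour. During the fifth hour, the ranges were 139.1 to 211.8 (median 153.4) and 130.5 to 181.1 (median 153.6). During the ninth hour, they were 134.0 to 186.5 (median 148.1) and 161.0 to 206.4 (median 179.6), with 2 treated mice above all control mice. The treated mouse was the brighter one on 4, 3 and 7 of 8 arrays, in the order of the time points.

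The log2 fold changes of *Mmp15* were -0.12, -0.06 and 0.26 (adjusted *p* = 0.23, 0.61 and 0.0092, SE 0.0713). Without replicate number 4, the first-hour value was -0.08 (adjusted *p* = 0.53). The change of effect at the ninth relative to the first hour was 0.38 (adjusted *p* = 0.044, SE 0.101). Within treated mice, *Mmp15* was higher during the ninth than during the first hour (log2 fold change 0.35, adjusted *p* = 0.0036, SE 0.0832), while the value in control mice was -0.03 (adjusted *p* = 0.98). The dimmer *Timp3* probe and *Mmp15* thus had significant changes of effect in opposite directions.

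The mean log2 ratio of *Mmp15* during the ninth hour was 0.22, 0.32 and 0.26 on slides 1, 2 and 3, and during the first hour 0.02, -0.13 and -0.21. Without slide 1, the ninth-hour difference was 0.29, no smaller than with all slides, and its call was lost (adjusted *p* = 0.12). The call in treated mice was lost without slide 1 (0.37) or slide 3 (0.30), with an adjusted *p* of 0.11 in both cases. The change of effect had an adjusted *p* of 0.066 with an offset of 0 and of 0.061 with a variance trend. It was 0.46, 0.35 and 0.33 without slides 1, 2 and 3 (adjusted *p* = 0.29, 0.24 and 0.46), and its call was lost without any 1 of 14 of the 24 arrays, with values of 0.33 to 0.39 and an adjusted *p* of up to 0.15.

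**Figure D2:**
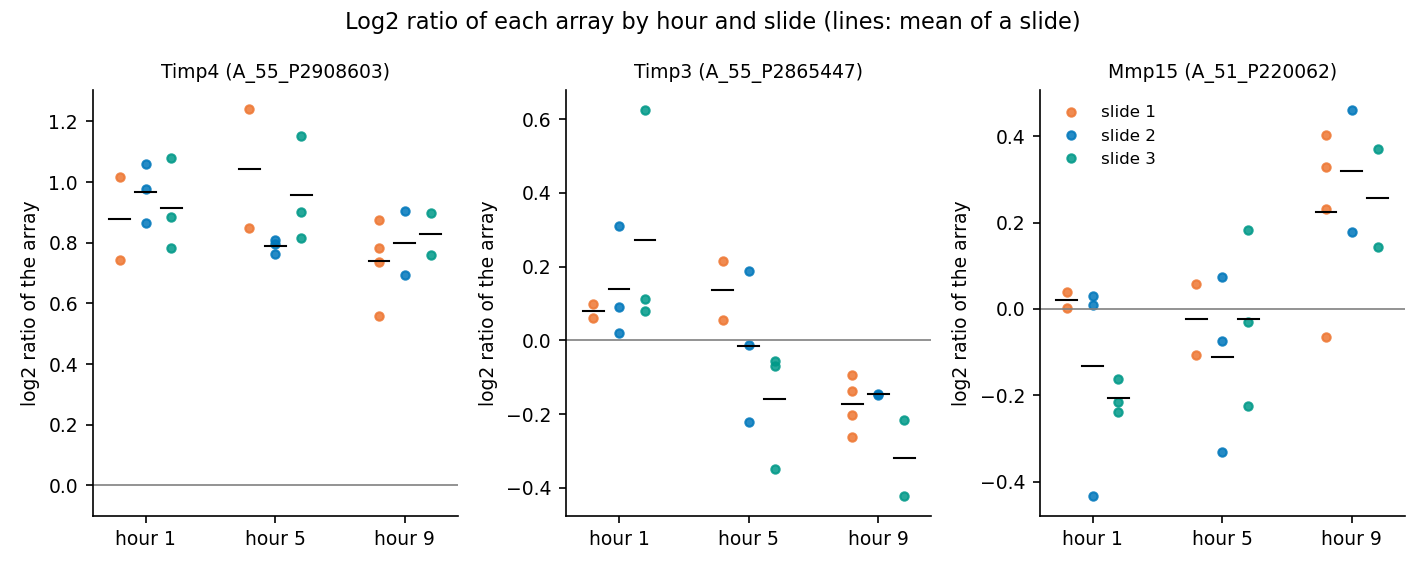
Log2 ratio of corticosterone over control (vertical axes) on each array for *Timp4* (A_55_P2908603), *Timp3* (A_55_P2865447) and *Mmp15* by time point; colors mark the 3 slides and short lines the mean of a slide. *Timp4* is above 0 on all 24 arrays, *Timp3* lies above 0 on all first-hour and below 0 on all ninth-hour arrays, and *Mmp15* has its slide means at 0.22 to 0.32 during the ninth hour.

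*Timp3* and *Mmp15* are both known from cells of the vessel wall, among other cells, so markers of these cells are given. Of 4 endothelial markers, 1 was higher and 2 were lower during the first hour, and 1 was higher and 1 lower during the fifth and the ninth hour. The shares of all named genes, given with the astrocyte markers, were 7.21% to 10.9% in either direction. The marker counts were not tested against them. *Cldn5*, a tight junction gene, had log2 fold changes of -0.36, -0.11 and 0.24 (adjusted *p* = 5.4e-05, 0.23 and 0.0081) and a change of effect at the ninth relative to the first hour of 0.60 (adjusted *p* = 2.5e-05). *Flt1*, a receptor of vascular growth factors, was lower at all 3 time points (log2 fold change -0.61, -0.47 and -0.37), and *Pecam1* was higher during the first and the fifth hour (0.29 and 0.23). The summed endothelial intensity ranged from 8571 to 10690 in control and from 5963 to 7801 in treated mice during the first hour and from 8668 to 10790 and from 6901 to 8591 during the fifth hour, without overlap. It ranged from 7834 to 9616 and from 7398 to 8457 during the ninth hour. This sum is mostly that of *Flt1* and *Cldn5* (mean intensity 4897 and 2914), whose own values it restates, while *Pecam1* and *Cdh5* (161.3 and 345.8) add little to it.

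Of 5 markers of mural cells and fibroblasts, 1, 2 and 1 were lower at the 3 time points in order, and none was higher. The shares of all named genes to set beside the counts of this paragraph were again 7.21% to 10.9% in either direction. *Rgs5*, a pericyte gene, was lower at all 3 time points (log2 fold change -0.23, -0.27 and -0.25), and the collagen gene *Col3a1* was lower during the fifth hour (-0.91, adjusted *p* = 0.00046). Their summed intensity, mostly that of *Rgs5* and *Pdgfrb*, was 2693 to 3102 in control and 2320 to 2829 in treated mice during the first, 2516 to 3436 and 2530 to 2892 during the fifth, and 2590 to 3485 and 2517 to 3101 during the ninth hour. All endothelial and mural markers were well above background in 48 channels. The part of these cells in the *Timp3* and *Mmp15* results was not tested. Of the other markers, 1 of 4 was higher and 2 were lower for oligodendrocytes at each time point, 0 were higher and 2, 1 and 1 of 4 lower for microglia, and 0 of 5 differed for choroid plexus and 0 of 2 for blood. Of 3 neutrophil markers, all below an intensity of 50, *S100a9* was lower during the first and the fifth hour (log2 fold change -0.56 and -0.59, adjusted *p* = 0.014 and 0.0070). Of 6 neuron markers, *Snap25* was higher during the fifth hour (log2 fold change 0.22, adjusted *p* = 0.0053), and the others had no call. *S100a9* and *Snap25* were named after their values were seen.

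*Mmp16* had a bright probe without a significant difference and a dimmer probe that was lower during the ninth hour. The bright probe A_55_P2803702 had log2 fold changes of -0.13, -0.16 and -0.04 (adjusted *p* = 0.45, 0.36 and 0.85, SE 0.124), with the treated mouse dimmer on 8, 7 and 5 of 8 arrays. Its first-hour value was -0.09 without replicate number 5 (adjusted *p* = 0.68). The fifth-hour value passed in the test on log ratios, which pairs the mice of an array (adjusted *p* = 0.028), and with the log2 ratios of the authors' table (0.045). On the array of the fifth hour that stood apart, it read 198.7 in the control and 156.0 in the treated mouse, against 408.0 to 568.1 in the other mice of that hour. The dimmer probe A_55_P2821761 ranged from 54.63 to 72.64 (median 62.84) in control and from 42.14 to 64.33 (median 57.24) in treated mice during the ninth hour, with a log2 fold change of -0.24 (adjusted *p* = 0.032, SE 0.0761). Its values of the first and the fifth hour were -0.06 and -0.05 (adjusted *p* = 0.59 and 0.72). The ninth-hour value was -0.32, -0.23 and -0.21 without slides 1, 2 and 3 (adjusted *p* = 0.12, 0.093 and 0.16), and its adjusted *p* was 0.053 in a fit of that hour alone. Its call was also lost without the array with replicate number 1, 3, 6 or 8, with values of -0.25 to -0.19 (adjusted *p* up to 0.11).

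The gelatinases gave dim spots. The *Mmp2* probe had intensities of 24.39 to 57.13 over all mice and was well above background in 42 of 48 channels; its log2 fold changes were -0.09, 0.09 and 0.08 (adjusted *p* = 0.65, 0.61 and 0.66, SE 0.103). Of 48 channels, 24 and 9 were well above background for the *Mmp9* probes, and their log2 fold changes had adjusted *p* values from 0.21 to 0.94. At the 3 time points, 3, 2 and 1 of 8 control mice were above this limit for A_52_P507214, and 0, 1 and 1 for A_66_P130121, so no fold is given for either. The standard error of the *Mmp9* values was 0.147 and 0.136, and the coefficient of variation within groups was 14.1% to 20.2% for *Mmp2* and 16.3% to 29.7% for *Mmp9*.

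*Mmp14* and *Mmp17* displayed no significant difference between treatments, except for *Mmp14* during the fifth hour with the scanner software's processed signals (adjusted *p* = 0.040). The *Mmp14* probe ranged from 39.60 to 109.3 over all mice, with log2 fold changes of 0.00, 0.21 and 0.08 (adjusted *p* = 1.00, 0.20 and 0.65, SE 0.107). The fifth-hour value leans on the array that stood apart, whose log2 ratio was 0.84 with its control mouse at 39.60, and was 0.12 without it (adjusted *p* = 0.44). The bright *Mmp17* probe A_51_P508770 was among the most even of the set, with a coefficient of variation of 3.18% to 9.43% within groups, and ranged from 5175 to 7606 over all mice. Its log2 fold changes were 0.10, 0.06 and -0.04 (adjusted *p* = 0.14, 0.36 and 0.59, SE 0.0496). The dimmer *Mmp17* probe A_66_P134813 gave 0.21, 0.16 and 0.13 (adjusted *p* = 0.28, 0.44 and 0.52, SE 0.130). Each of these values leans on 1 array. They were 0.13, 0.09 and 0.07 without replicate numbers 8, 1 and 8 of the 3 time points in order. Over the 24 arrays, the log2 ratios of the 2 probes of a gene had r values of 0.0908 for *Mmp17*, -0.0122 for *Mmp16* and 0.00565 for *Mmp9*, against 0.942 for *Timp3* and 0.626 for *Timp4*, as descriptions.

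**Figure D3:**
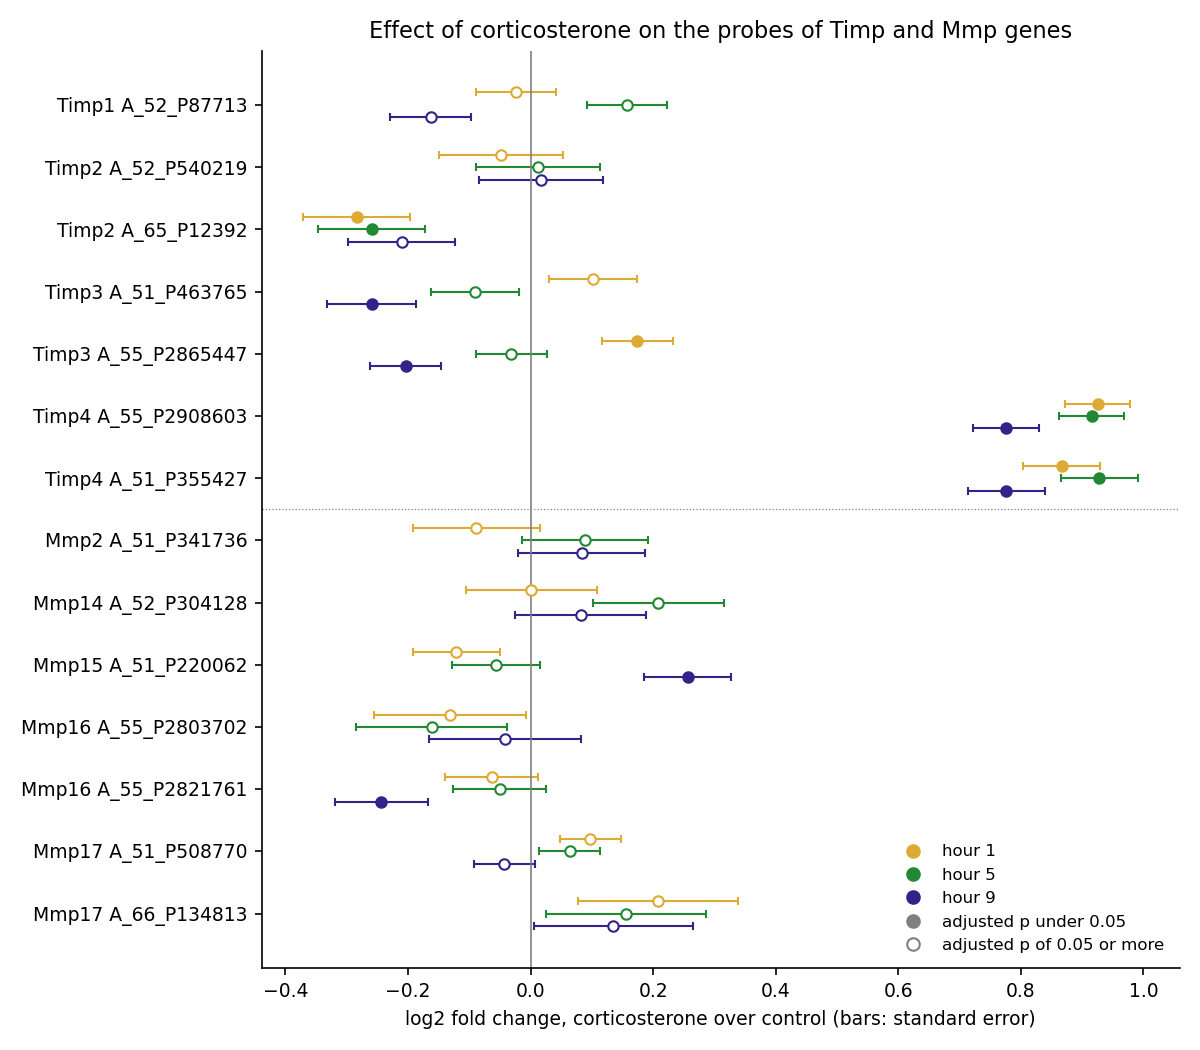
Log2 fold change of corticosterone over control (horizontal axis) with its standard error for 14 of the 16 probes, Timp genes above and metalloproteinase genes below the dotted line; colors mark the time points and filled circles an adjusted *p* under 0.05. Values are drawn where at least 4 of 8 mice of both groups were well above background, which leaves out both *Mmp9* probes. *Timp4* stands at 0.78 to 0.93 at all time points, and all other values drawn lie between -0.28 and 0.26.

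Over the 16 probes, 3 were significantly higher and 1 lower during the first hour, 2 higher and 1 lower during the fifth, and 3 higher and 3 lower during the ninth hour. Among all 56605 probes, 8.85% were higher and 8.67% lower during the first hour, 8.62% and 9.47% during the fifth, and 7.01% and 6.97% during the ninth hour. *Timp4* enters the member counts with 2 probes at each time point, and *Timp3* enters those of the ninth hour with 2. The significant probes belonged to 3, 2 and 4 genes at the 3 time points in order. The median log2 fold change of the 16 probes was -0.01, 0.04 and 0.05, and that of all probes 0.00 at each time point. By role, 4, 3 and 4 of the 7 Timp probes and 0, 0 and 2 of the 9 metalloproteinase probes were significant.

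For the change of effect between time points, 2 of the 16 probes (*Timp3* and *Mmp15*) were significant from the first to the ninth hour, where 0.827% of all probes were. From the first to the fifth and from the fifth to the ninth hour, limma called 0 of the 16 probes in each case (1 and 3 with an unadjusted *p* under 0.05), where 0.0389% and 0.0830% of all probes were called. In control mice, 0 of the 16 probes differed in any pair of time points (2, 3 and 2 with an unadjusted *p* under 0.05, for the fifth against the first, the ninth against the first and the ninth against the fifth hour), where 0.00530%, 0.537% and 0.0336% of all probes did. In treated mice, 1 probe differed between the fifth and the first hour, where 0.546% of all probes did. There were 5 probes that differed between the ninth and the first hour (*Timp3* and *Timp4* with 2 each, all lower, and *Mmp15*, higher), where 4.02% of all probes did, and 2 between the ninth and the fifth hour (*Timp4*), where 0.661% did. These comparisons share their mice with those between treatments.

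The host genes were looked at beside their Timp genes. *Syn2*, which encloses *Timp4*, did not pass the test at any time point: its brightest probe A_52_P62444 had log2 fold changes of -0.06, 0.02 and 0.00 (adjusted *p* = 0.44, 0.84 and 0.98, SE 0.0514), and its control mice ranged from 46260 to 57960 against 44520 to 54860 in treated mice during the first hour. The sign of these 3 *Syn2* values changed under other settings, and during the fifth hour *Syn2* passed with the log2 ratios of the authors' table (0.11, adjusted *p* = 0.035). *Syn1*, which encloses *Timp1*, had 0.09, 0.08 and 0.11 (adjusted *p* = 0.21, 0.27 and 0.15, SE 0.0559). *Syn3*, which encloses *Timp3*, was higher in treated mice during the first and the fifth hour.

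The *Syn3* probe A_52_P1128347 ranged from 622.9 to 804.1 (median 720.2) in control and from 734.2 to 962.4 (median 871.6) in treated mice during the first hour, with the treated mouse brighter on 8 of 8 arrays. Its log2 fold changes were 0.28, 0.21 and 0.06 (adjusted *p* = 2.8e-05, 0.0017 and 0.47, SE 0.0509), and the change of effect at the ninth relative to the first hour was -0.22 (adjusted *p* = 0.13, SE 0.0719). The fifth-hour call was lost without slide 2 (0.15, adjusted *p* = 0.085). In treated mice, this probe was lower during the ninth than during the first hour (log2 fold change -0.39, adjusted *p* = 2.7e-06). The dim *Syn3* probe A_55_P2593149 was well above background in 1, 0 and 3 of 8 control mice at the 3 time points, and no fold is given.

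**Figure D4:**
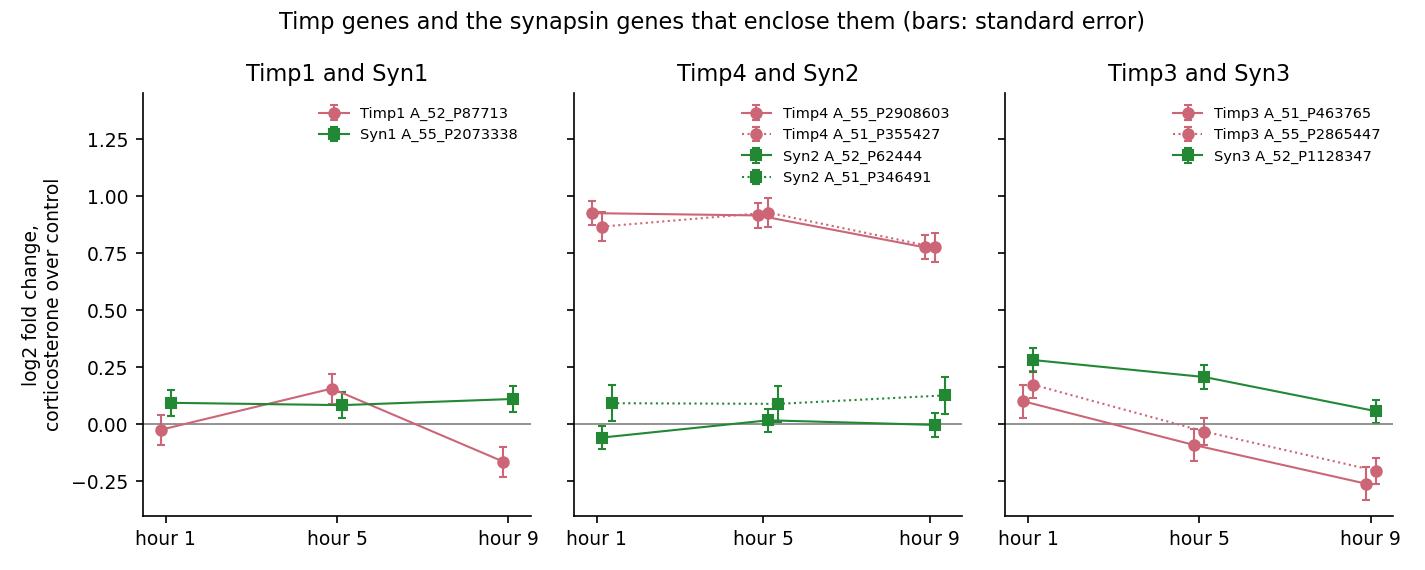
Log2 fold change of corticosterone over control (vertical axis, with standard error) by time point for 3 Timp genes (red circles) and the synapsin genes that enclose them (green squares); dotted lines are the dimmer probe of a gene. *Timp4* stands at 0.78 to 0.93 while *Syn2* stays between -0.06 and 0.13, and the brighter probes of *Timp3* and *Syn3* have their lowest value during the ninth hour; the dim *Syn3* probe is not drawn.

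By the array log2 ratios over the 24 arrays, the genes most like a member were named for those whose brightest probe differed, out of 15405 genes compared. For *Timp4* these were *Brms1*, *Sult1a1* and *Fam107a* (Pearson's r 0.755, 0.717 and 0.716). For *Timp3* they were *Lama1*, a laminin chain of the basement membrane, *Lhfp* and *Abcg2*, the transporter of brain capillaries (r 0.905, 0.899 and 0.871), and for *Mmp15* *Yif1a*, *Armc5* and *Accs* (r 0.823, 0.808 and 0.783). The arrays share their time points and slides, so these values are descriptions. Within the time points, r of *Timp3* with *Lama1* was 0.915, 0.921 and 0.725. That of *Timp4* was 0.666, 0.657 and 0.812 with *Brms1*, 0.712, 0.966 and 0.0641 with *Sult1a1*, and 0.577, 0.624 and 0.836 with *Fam107a*, each over the 8 arrays of a time point. That of *Mmp15* was 0.812, 0.725 and 0.46 with *Yif1a*, 0.609, 0.834 and 0.897 with *Armc5*, and 0.511, 0.576 and 0.7 with *Accs*. During the ninth hour, in which *Mmp15* was higher by 0.26 on the log2 scale, the log2 fold changes of *Yif1a*, *Armc5* and *Accs* were 0.03, -0.04 and 0.03. The log2 fold changes of *Lama1* were 0.15, -0.06 and -0.34, those of *Lhfp* 0.56, 0.37 and 0.15, and those of *Abcg2* 0.09, -0.03 and -0.35.

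Other genes of matrix proteolysis were counted by their brightest probe. Among the brightest probes of all 23787 named genes, 10.3% were higher and 10.4% lower during the first hour, 9.90% and 10.9% during the fifth, and 8.37% and 7.21% during the ninth hour. Of the other 15 genes of the metalloproteinase family, 1 was higher at each time point, and 2, 1 and 2 were lower. The higher gene was *Mmp24*, a membrane-type enzyme of neurons, with log2 fold changes of 0.25, 0.19 and 0.25 (adjusted *p* = 0.0028, 0.021 and 0.0039, SE 0.0630). The lower ones were *Mmp12* and *Mmp27* during the first, *Mmp27* during the fifth, and *Mmp10* and *Mmp12* during the ninth hour, named after their values were seen. Of 48 channels, 1 was well above background for *Mmp12* and 0 for *Mmp27* and *Mmp10*, and no fold is given. Only 4 of these 15 genes had an intensity of 50 or more.

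Of 23 adamalysins, membrane regulators and related genes, 1 was higher and 1 lower during the first hour, 1 and 3 during the fifth, and 2 and 3 during the ninth hour. The largest differences were those of *Cd44*, a hyaluronan receptor (-0.53 during the fifth hour, adjusted *p* = 0.043, SE 0.193), *Adamts2*, a procollagen proteinase (-0.47 during the ninth hour, adjusted *p* = 0.0030, SE 0.114), and *Adam17*, the sheddase of tumor necrosis factor (-0.36 during the fifth hour, adjusted *p* = 0.017, SE 0.113). All 3 were lower in treated mice. Their list medians were -0.05, -0.03 and -0.05, and those of all named genes 0.00, 0.00 and 0.01.

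Of 9 genes of the plasminogen system, which activates metalloproteinases, 2 were higher and 2 lower during the first hour, and 1 higher and 1 lower at each of the later time points. *Plat*, the tissue plasminogen activator, was higher at all 3 time points (log2 fold change 0.26, 0.19 and 0.20, adjusted *p* = 0.0017, 0.020 and 0.018, SE 0.0622), and *Plau*, the urokinase, was lower during the first hour (-0.34, adjusted *p* = 0.0059, SE 0.0880). The list medians were 0.03, 0.03 and 0.00.

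Of 23 genes of the brain matrix and basement membrane, the substrates of these enzymes, 5 were higher and 4 lower during the first hour, 3 and 4 during the fifth, and 4 and 2 during the ninth hour. *Thbs4*, a thrombospondin, was higher during the first hour (log2 fold change 0.71, adjusted *p* = 0.00043, SE 0.151), with 0.20 and 0.03 (adjusted *p* = 0.36 and 0.93) afterwards. *Tnc*, the tenascin of reactive tissue, was lower during the first and the fifth hour (-0.45 and -0.48, adjusted *p* = 0.0084 and 0.0046, SE 0.117), and *Nid2*, a basement membrane linker, during the first hour (-0.45, adjusted *p* = 0.00078, SE 0.0918). The list medians were 0.04, -0.05 and -0.02.

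As a check of the treatment, 6 of 6 known glucocorticoid targets were higher during the first hour and 4 during the fifth, while 1 was higher and 2 were lower during the ninth hour. *Tsc22d3* passed from 0.93 during the first to -0.58 during the ninth hour (adjusted *p* = 4.9e-10 and 3.3e-05), *Cdkn1a* from 2.06 to 0.17 (adjusted *p* = 3.5e-12 and 0.65), and *Sult1a1* stayed at 2.09, 2.18 and 1.68 (adjusted *p* = 6.0e-21, 2.4e-21 and 1.9e-16). *Timp4* thus kept a significant difference through the ninth hour, when 3 of the 6 targets were not significant.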

How the data were processed

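Hippocampal RNA of 48 mice was measured on 24 dual-color Agilent arrays on 3 slides. The deposited scanner files hold the median intensity and background of each spot, as written by the authors' Feature Extraction software (10.7.3.1), before normalization. The authors' table of processed values holds log2 ratios of Cy5 over Cy3, which lay closest to values with background correction and loess alone (median absolute difference 0.001185). This table served as an alternative.

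Median intensities were corrected with normexp, normalized by loess within and quantile between arrays, and tested with the separate channel analysis of limma 3.58.1 (R 4.3.3, statmod 1.5.0) in 1 fit of 6 groups, the *p* values with an offset of 50, and fold changes, standard errors and printed intensities with 0. Control spots (3671) were removed, outlier spots were set as missing, and *p* values were adjusted by Benjamini-Hochberg over 56605 probes. The code was tested on simulated data. Mice are separate animals and the unit of replication. Per the study's methods, the control mice were siblings of the treated mice and each group was drawn from several litters; the litter of a mouse is not given in the sources used here, so it was not a term of the fit. Replicate numbers follow the order of the samples.

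Probes were named by RefSeq accession (34566 probes; table of GRCm38.p6). The brightest probe stands for a gene, and further probes of a member are described where they differ or have a call. Of other lists, up to 3 genes with an intensity of at least 50 were named by the largest significant difference, and up to 3 genes per member by likeness; exceptions are marked. A gene that this rule would name is not reported here. Cell markers are described where they bear on a member. Members and lists were chosen with earlier results of these data known. 17 alternatives were planned; leaving out the array that stood apart, and each of the 24 arrays in turn (with the correlation within spots of the whole fit), was added after seeing the data.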

Additional observations from a re-analysis of the deposited data

Results flagged for a closer look

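In groups of 8 values, single samples far from the others were sought by Dixon's criterion, which chance meets in about 1 of 20 groups. It was met in 1 of 48 groups of log2 ratios and in 9 of 96 groups of intensities. The ratio was that of *Mmp17* (A_51_P508770) on the array of the fifth hour with replicate number 3, at -0.1986, against 0.0196 to 0.1663 on the others.

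The array of the fifth hour with replicate number 7, which stood apart as a whole, gave 5 of the 9 intensities. Its control mouse read 39.60 for *Mmp14* (others 69.62 to 109.3) and 198.7 for *Mmp16* A_55_P2803702 (others 467.1 to 568.1). Its treated mouse read 156.0 for the same *Mmp16* probe (others 408.0 to 518.6), 3576 for *Timp3* A_51_P463765 (others 4603 to 5564) and 19.50 for *Mmp9* A_52_P507214 (others 31.91 to 38.05).

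The other 4 intensities came from other arrays. *Timp4* A_51_P355427 read 697.2 in the control mouse of the ninth hour with replicate number 6 (others 827.5 to 939.4). *Mmp14* read 58.29 in the control mouse of the first hour with replicate number 7 (others 79.42 to 91.79) and 105.6 in the treated mouse of the ninth hour with replicate number 6 (others 71.41 to 85.70). *Mmp16* A_55_P2821761 read 80.32 in the control mouse of the fifth hour with replicate number 3 (others 59.20 to 65.26).

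Of 48 changes of the treatment effect between time points, 2 passed the threshold. From the first to the ninth hour, the effect on *Timp3* A_55_P2865447 changed by -0.3776 and that on *Mmp15* by 0.3776 on the log2 scale.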

How the results depend on the processing

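Of 23 significant results of the 16 probes, 8 kept their significance under each setting that gives their comparison: the 6 *Timp4* differences between treatments under 18 other settings, 1 of them added later, and *Timp3* A_55_P2865447 and *Timp4* A_55_P2908603 in treated mice of the ninth against the first hour under 15, which leave out the settings based on array ratios and the separate fits. Another 8 lost it only where a slide or an array was left out, and 7 under another setting; none changed direction. An offset of 50 for fold changes was among these settings. It leaves the *p* values as they are, so no call could change under it. With each of the 24 arrays left out in turn, also added later, 15 kept their significance and 8 lost it without at least 1 array; the number of significant probes was 3 to 4, 2 to 4 and 5 to 6 for the treatment effects, 1 to 3 for the change of effect and 4 to 6 for treated mice. The number of significant probes was 4, 3 and 6 of 16 for the treatment effect at the 3 time points in order. It became 3 during the first and 2 during the fifth hour in a separate fit or without slide 1, 3 during the first hour without slide 2, 2 during the fifth hour without slide 3, 5 during the ninth hour without slide 2 or 3, 4 during the fifth hour with Aquantile normalization, processed signals, the authors' log2 ratios or the test on log ratios, 7 during the ninth hour in a separate fit, 2 during the first hour without slide 3 and 2 during the ninth hour without slide 1. For the change of effect at the ninth relative to the first hour, the number was 2, and it became 1 with an offset of 0 for *p* values, 1 with a variance trend and 0 without slide 1, 2 or 3; it became 3 with processed signals, with either filter on dim probes, with the authors' log2 ratios and without the array of the fifth hour that stood apart. For treated mice of the ninth against the first hour, it was 5, and 4 with an offset of 0 and 3, 3 and 2 without slides 1, 2 and 3. In that comparison, *Mmp2* passed with processed signals (adjusted *p* = 0.013) and *Mmp16* A_55_P2821761 without slide 1 (0.033). Leaving out a slide removes 8 of 24 arrays, and the share of all probes passing fell as well: from 17.5%, 18.1% and 14% for the treatment effects in order to 8.05% to 11.6%, 7.31% to 12.7% and 3.3% to 8.77%, from 0.827% to between 0.217% and 0.458% for the change of effect, and from 4.02% to between 1.33% and 2.21% for treated mice. The cause of each loss was not tested further. Without the array of the fifth hour that stood apart, chosen after seeing the data, the counts of treatment effects were 4, 2 and 6. The test on log ratios pairs the 2 mice of an array and gave 4, 4 and 6 significant treatment effects and 2 changes of effect. Among 34 results of brightest probes that were not significant, 9 changed sign and 5 became significant under another setting. These 34 cover only the treatment effects and the change of effect at the ninth relative to the first hour. Dim probes (*Mmp2*, *Mmp9*) are limited by their signal over background, and no dye exchange separates dye from treatment.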
